A study of Homo sapiens with 6 samples.

Results

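The genes described here are 8 that have been tied to bone metastasis of the breast cancer line MDA-MB-231: FGF5, FST, IL11, CXCR4, PTHLH, JAG1, SPP1 and DUSP1. They were listed by name, with earlier results of these data known, and every row of the deposited array table annotated to 1 of them was used. Of the 8 genes, 7 had a row, out of 21214 rows with a gene symbol. PTHLH, the gene of parathyroid hormone-related protein, was not analysed here. RNA was measured in 3 groups of 2 independent clones each. The first carried short hairpin RNA (shRNA) 159 against TIP-1, the second carried shRNA 162 against TIP-1, and the third carried a control shRNA. All 6 clones came from MDA-MB-231, a human cell line that lacks hormone receptors and HER2 amplification, and were grown alike and collected after a night in culture without bone cells or any other host tissue. Each clone was read on 1 Affymetrix Human Gene 1.0 ST array with no technical repeat, so the clone is the replicate and n = 2 per group throughout.

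Bone metastasis of breast cancer depends on factors that tumour cells release and receptors that they carry. Parathyroid hormone-related protein and interleukin-11 act on bone-forming cells, which then promote the maturation of osteoclasts, the cells that resorb bone. Jagged-1, the Notch ligand made from JAG1, engages bone cells directly, and growth factors set free from the matrix, TGF-beta among them, act back on the tumour. The chemokine receptor CXCR4 guides cells to marrow rich in its ligand CXCL12, and osteopontin, the product of SPP1, anchors cells through integrins and CD44. TIP-1, encoded by TAX1BP3, is a small protein made almost wholly of 1 PDZ domain, and beta-catenin is among its partners.

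TIP-1 RNA was below control in all clones of either hairpin. The row of TAX1BP3, shared with the readthrough transcript P2RX5-TAX1BP3, stood at 10.40 and 10.40 in the shRNA 159 clones, at 9.85 and 10.01 in the shRNA 162 clones and at 11.65 and 11.56 in the control clones. It fell by 1.20 with shRNA 159 (limma adjusted p = 0.00034) and fell by 1.67 with shRNA 162 (4.4e-05), and the hairpins differed by 0.47 (0.013). These and all levels below are log2 signals of 1 row, on which a difference of 1 is a doubling, and levels of different rows are not comparable. Of the 6 mesenchymal genes listed as typical of the line (VIM, CD44, EGFR, CAV1, ZEB1 and AXL), 0 passed the limma test in any comparison. Of the 7 luminal and hormone receptor genes listed (ESR1, PGR, ERBB2, CDH1, GATA3, KRT18 and EPCAM), 1 passed with shRNA 159 and 0 with shRNA 162 against control. That gene was EPCAM, an epithelial adhesion gene, which rose by 0.94 with shRNA 159 (limma adjusted p = 0.00086), and its part in the results was not tested. With shRNA 162, 1 of the 7 had an unadjusted p under 0.05, beside 5322 of all 21214 tested rows. Of 9 bone and leukocyte genes listed for other cells, 6 had a row of their own, and 0 passed the limma test in any comparison. The leukocyte gene PTPRC, 1 of them, lay below the lower quartile of the array on 6 of 6 arrays. Levels of the others are not given here. Array medians spanned 7.37 to 7.44. The sources used here do not say how the clones were derived, so the p-values speak for these clones only. They rest on the spread between clones within groups, after sharing information on spread across rows.

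Promoter sequence is shown for the 3 genes whose signal passed a test, FGF5, FST and IL11, so that the DNA at their starts can be read beside the values. Each line is the 250 bases before the annotated start, 5′ to 3′ on the strand of the gene, from RefSeq on GRCh38.p14. Capitals mark matches to 5 motifs searched on both strands. They were the AP-1 pattern TGANTCA (N is any base), the cyclic AMP response element TGACGTCA and the TCF/LEF core CTTTGAT. The others were the RBPJ site GTGGGAA and the SMAD box GTCTAGAC. The windows are chr4:80266338-80266587 (plus strand) for FGF5, chr5:53480379-53480628 (plus strand) for FST and chr19:55370464-55370713 (minus strand) for IL11.
FGF5: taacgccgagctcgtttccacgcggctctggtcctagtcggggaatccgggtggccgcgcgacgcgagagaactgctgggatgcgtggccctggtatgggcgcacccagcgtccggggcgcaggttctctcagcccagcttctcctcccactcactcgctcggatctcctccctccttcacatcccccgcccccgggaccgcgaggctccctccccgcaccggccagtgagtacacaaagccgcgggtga
FST: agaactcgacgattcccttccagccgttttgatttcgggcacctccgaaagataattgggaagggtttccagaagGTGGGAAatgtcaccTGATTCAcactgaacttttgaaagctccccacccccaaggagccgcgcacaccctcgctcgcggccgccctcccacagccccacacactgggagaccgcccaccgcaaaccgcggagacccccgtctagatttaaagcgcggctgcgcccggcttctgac
IL11: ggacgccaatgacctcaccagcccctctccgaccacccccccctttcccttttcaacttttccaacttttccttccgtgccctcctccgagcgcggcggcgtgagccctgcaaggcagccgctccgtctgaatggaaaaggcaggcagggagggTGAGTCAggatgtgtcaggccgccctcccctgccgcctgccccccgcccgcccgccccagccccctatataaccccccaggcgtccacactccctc

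All 8 genes had a promoter entry, and the motifs were picked after the sequences had been seen. The FST window held 1 RBPJ site, starting 175 bases before the start. It also held 1 match to the AP-1 pattern, starting 160 bases before the start and reading TGATTCA. The IL11 window held 1 match to that pattern, starting 96 bases before its start and reading TGAGTCA. Since the pattern accepts any base at N, a match is looser than a fixed AP-1 sequence. The FGF5 window held none of the 5 motifs, so its line has no capitals. Outside the sequences shown, 1 cyclic AMP response element lay in the DUSP1 window, starting 125 bases before the start. Matches to the AP-1 pattern occurred in 6.57% of 27305 promoter windows of this length, and RBPJ sites in 5.48%. Cyclic AMP response elements occurred in 1.75%, TCF/LEF cores in 2.30% and SMAD boxes in 0.18%. A match describes letters and shows no binding.

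FGF5 encodes a secreted fibroblast growth factor, and its row (probe set 8096050) had the largest decrease of the 7 genes with shRNA 162. Signal was 9.59 and 9.46 in the shRNA 159 clones, 9.27 and 9.27 in the shRNA 162 clones and 9.74 and 9.90 in the control clones. The shRNA 162 clones were lowest, the shRNA 159 clones lay between, and no group overlapped another. FGF5 fell by 0.55 with shRNA 162 against control (SE 0.09, 1.46-fold lower, limma adjusted p = 0.0082). With shRNA 159 the difference from control was -0.29 (SE 0.09, limma adjusted p = 0.167), which missed the threshold of an adjusted p under 0.05. The difference between the hairpins was 0.26 (95% interval 0.05 to 0.46, limma adjusted p = 0.118). Averaged over both hairpins FGF5 fell by 0.42 (SE 0.08, limma adjusted p = 0.021). The shRNA 162 call was lost without control clone 2 (limma adjusted p = 0.068), without shRNA 162 clone 1 (0.054) or without shRNA 162 clone 2 (0.058). The averaged call was lost without control clone 1 (0.076) or 2 (0.212), without shRNA 162 clone 1 (0.063) or 2 (0.066), and with the 4 shRNA clones taken as 1 group (0.233).

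FST encodes follistatin, which binds activins and keeps them from their receptors. It was the only 1 of the 7 genes measured to pass the test as higher than control in this fit. Its row (probe set 8105302) stood at 9.65 and 9.56 in the shRNA 159 clones, at 9.32 and 9.36 in the shRNA 162 clones and at 9.10 and 9.21 in the control clones. All 4 shRNA clones lay above both control clones, and the shRNA 159 clones lay above the shRNA 162 clones. FST rose by 0.45 with shRNA 159 against control (SE 0.08, 1.37-fold, limma adjusted p = 0.026). With shRNA 162 the difference from control was 0.19 (SE 0.08, limma adjusted p = 0.193), and between the hairpins it was 0.26 (95% interval 0.08 to 0.45, limma adjusted p = 0.083), neither of which passed. The average over both hairpins rose by 0.32 (SE 0.07, limma adjusted p = 0.042). The shRNA 159 call was lost without control clone 1 (limma adjusted p = 0.168) or 2 (0.10), without shRNA 159 clone 1 (0.120), and without either shRNA 162 clone (0.055). The averaged call was lost without any 1 array other than shRNA 159 clone 2 (0.079 to 0.259), after quantile normalization (0.052) and with the 4 shRNA clones as 1 group (0.359).

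IL11 encodes interleukin-11, a cytokine of the IL-6 family that signals through gp130. The hairpins went opposite ways from control in this row (probe set 8039484). Signal was 10.18 and 10.19 in the shRNA 159 clones, 9.91 and 9.73 in the shRNA 162 clones and 9.96 and 9.98 in the control clones. The shRNA 159 clones both lay above control and both shRNA 162 clones below it. Neither difference from control passed: it was 0.22 with shRNA 159 (SE 0.08, limma adjusted p = 0.282) and -0.14 with shRNA 162 (SE 0.08, limma adjusted p = 0.335). The direct comparison did pass, with IL11 higher by 0.36 in the shRNA 159 clones than in the shRNA 162 clones (SE 0.08, 1.29-fold, limma adjusted p = 0.034). That call was lost without any 1 of the 6 arrays: without control clone 1 or 2 (0.063), shRNA 159 clone 1 (0.082) or 2 (0.090), or shRNA 162 clone 1 (0.060) or 2 (0.218). The mean over both hairpins was 0.04 from control (95% interval -0.13 to 0.20), an average of opposite differences.

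**Figure D1:**
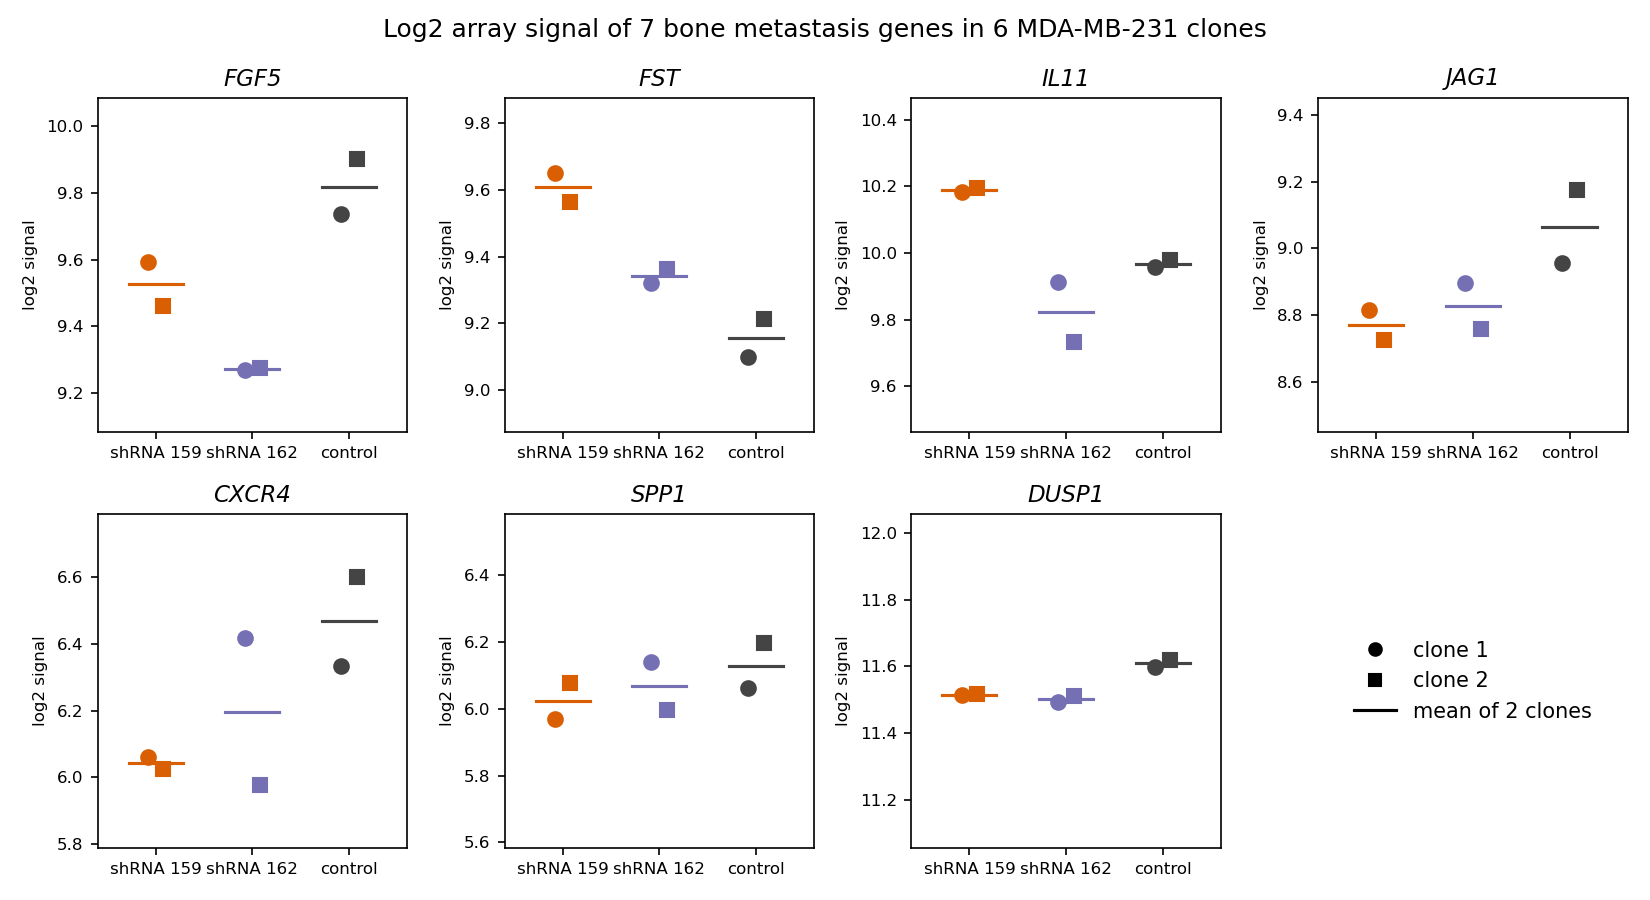
Log2 signal (y axes, each panel spanning the same height of 1 log2 unit) of 7 genes in the shRNA 159, shRNA 162 and control clones, with circles for clone 1, squares for clone 2 and bars for the mean of 2 clones. FGF5 was lowest with shRNA 162 (9.27 and 9.27), FST was highest with shRNA 159 (9.65 and 9.56), and IL11 lay above control with shRNA 159 and below it with shRNA 162.

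JAG1 encodes a Notch ligand on the cell surface, and CXCR4 encodes the receptor of CXCL12. The JAG1 row (probe set 8064978) had 8.81 and 8.73 in the shRNA 159 clones, 8.90 and 8.76 in the shRNA 162 clones and 8.96 and 9.18 in the control clones. The 4 shRNA clones were each lower than either control clone, by as little as 0.06 between the nearest, and the hairpin groups overlapped. The difference from control was -0.30 with shRNA 159 (SE 0.10, limma adjusted p = 0.209) and -0.24 with shRNA 162 (SE 0.10, limma adjusted p = 0.175), and the average was -0.27 (limma adjusted p = 0.128). None passed in this fit, although the average did when the variance prior followed signal (0.037). Between the hairpins JAG1 differed by -0.06 (95% interval -0.28 to 0.17).

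CXCR4 was a dim row (probe set 8055465), below the lower quartile on 2 of 6 arrays. It read 6.06 and 6.02 in the shRNA 159 clones, 6.42 and 5.98 in the shRNA 162 clones and 6.34 and 6.60 in the control clones. The shRNA 159 clones lay below both control clones, whereas the shRNA 162 clones spread over 0.44 and overlapped both other groups. Its difference from control was -0.43 with shRNA 159 (SE 0.15, limma adjusted p = 0.223) and -0.27 with shRNA 162 (SE 0.15, limma adjusted p = 0.293), and neither passed. The 95% intervals, the widest of the 7 genes, ran from -0.76 to -0.09 and from -0.60 to 0.06. Detection calls were not used here, so a signal this low is not shown to stand above background.

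SPP1 and DUSP1 spanned the smallest ranges over the 6 arrays, 0.23 and 0.13. The SPP1 row (probe set 8096301), for osteopontin, lay below the lower quartile on 5 of 6 arrays, at 5.97 and 6.08 in the shRNA 159 clones, 6.14 and 6.00 in the shRNA 162 clones and 6.06 and 6.20 in the control clones. All groups overlapped, and the differences from control were -0.11 with shRNA 159 (95% interval -0.31 to 0.10) and -0.06 with shRNA 162 (-0.27 to 0.15). DUSP1 encodes a phosphatase that switches off MAP kinases, and its row (probe set 8115831) was the tightest of the set. It read 11.51 and 11.52 in the shRNA 159 clones, 11.49 and 11.51 in the shRNA 162 clones and 11.60 and 11.62 in the control clones. Each of the 4 shRNA clones was lower than either control clone by a small step, -0.09 with shRNA 159 (SE 0.07, limma adjusted p = 0.619) and -0.11 with shRNA 162 (SE 0.07, limma adjusted p = 0.412). The spread between DUSP1 clones of a group (SD 0.002 to 0.015) was below the standard error of 0.07 that the fit gives each difference after sharing information on spread across rows.

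Counted over the set, the tests called few members. With shRNA 159 against control 1 of 7 genes passed (FST, higher), beside 2.53% of all tested rows. With shRNA 162 against control 1 of 7 passed (FGF5, lower), beside 9.52% of all rows. For the average of both hairpins against control 2 of 7 passed (FST higher, FGF5 lower), beside 4.62% of all rows. Between the hairpins 1 of 7 passed (IL11, higher with shRNA 159), beside 8.65% of all rows. At an unadjusted p under 0.05 the counts were 5, 3, 4 and 3 of 7 in the same order. Over all 21214 tested rows they were 2995, 5322, 4192 and 5131. With all 33297 rows tested, with or without a symbol, 0 of 7 passed in any comparison, and with the hairpin as a random block 0 of 7 passed on average. The median difference of the 7 genes was -0.11 with shRNA 159 and -0.14 with shRNA 162, against medians of -0.01 and 0.02 over all tested rows. Both hairpin comparisons use the same control clones, so the signs of the 7 genes in each are not independent of each other.

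**Figure D2:**
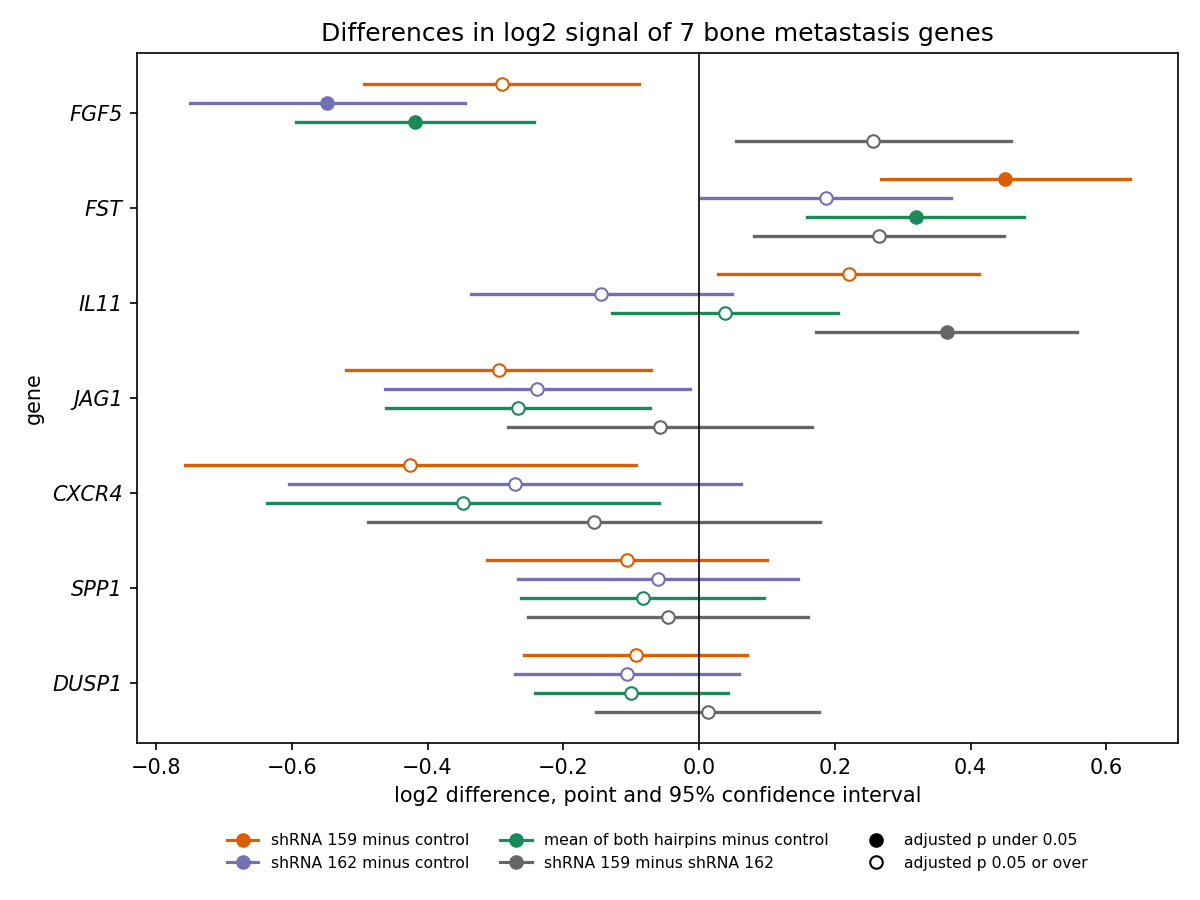
Differences in log2 signal (x axis) of 7 genes for shRNA 159 minus control, shRNA 162 minus control, the mean of both hairpins minus control and shRNA 159 minus shRNA 162, with points for the estimate and lines for the 95% confidence interval. Filled points passed at a limma adjusted p under 0.05: FGF5 with shRNA 162 (-0.55) and on average (-0.42), FST with shRNA 159 (0.45) and on average (0.32), and IL11 between the hairpins (0.36).

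The pathways in which these genes act were followed through 161 further genes in 10 lists, of which 148 had a row of their own. With shRNA 159 against control 4 rose and 2 fell (4.05% passed), and with shRNA 162 against control 11 rose and 14 fell (16.9% passed). On average over both hairpins 8 rose and 7 fell, and between the hairpins 12 were higher and 7 lower with shRNA 159. These shares stand beside the 2.53%, 9.52%, 4.62% and 8.65% of all tested rows given above. An unadjusted p under 0.05 was found in 2995 of 21214 rows with shRNA 159 and in 5322 with shRNA 162. The unadjusted counts of the lists below stand beside those numbers. Without control clone 1 or 2 the counts were 2 and 1 of 148 with shRNA 159 and 11 and 14 with shRNA 162, and without shRNA 162 clone 1 or 2 they were 14 and 13 with shRNA 162. The 15 calls on average became 4 and 5 without control clone 1 or 2, 9 and 8 without shRNA 162 clone 1 or 2, 3 with the 4 shRNA clones as 1 group and 1 with the hairpin as a random block. The 19 calls between the hairpins became 7 and 10 without shRNA 162 clone 1 or 2. With all 33297 rows tested, 1 of 148 passed with shRNA 159, 13 with shRNA 162, 5 on average and 7 between the hairpins.

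Among ligands, receptors and inhibitors of the FGF pathway, FGF1 had the largest change. FGF1, a growth factor that binds all FGF receptors, fell by 0.93 with shRNA 162 (limma adjusted p = 0.00043) and read -0.26 with shRNA 159 (0.151). Its clones stood at 8.56 and 8.51 with shRNA 159, 7.86 and 7.86 with shRNA 162 and 8.84 and 8.75 with control shRNA. The receptor FGFR1 rose by 0.34 with shRNA 162 (limma adjusted p = 0.034), and so did SPRY4, a feedback inhibitor of the pathway, by 0.45 (0.024). With shRNA 159 FGFR1 read -0.08 (limma adjusted p = 0.714) and SPRY4 read 0.27 (0.231). Averaged over both hairpins SPRY4 rose by 0.36 (limma adjusted p = 0.0473), a call kept in 1 of 6 refits without 1 array. Between the hairpins SPRY4 did not pass (limma adjusted p = 0.306). SPRY1, a relative of SPRY4, passed between the hairpins alone, at -0.44 (0.026). In all, 2 of 16 FGF pathway genes rose and 1 fell with shRNA 162. With shRNA 159, 0 of 16 passed the limma test and 4 had an unadjusted p under 0.05.

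Of 14 genes of activins, their receptors, follistatin relatives and bone morphogenetic proteins, 2 fell with shRNA 162, and neither encodes an activin subunit or an activin receptor. With shRNA 159, 0 passed the limma test and 0 had an unadjusted p under 0.05. With shRNA 162, 3 of 14 had an unadjusted p under 0.05. Among them the activin subunit INHBA was higher by 0.38, which did not pass (limma adjusted p = 0.064). FSTL1, a secreted relative of follistatin, fell by 0.81 with shRNA 162 (limma adjusted p = 0.00077), and the bone morphogenetic protein BMP4 fell by 0.71 (0.013). The FSTL1 clones read 11.36 and 11.35 with shRNA 159, 10.59 and 10.62 with shRNA 162 and 11.45 and 11.38 with control shRNA. The shRNA 162 clones lay below all others in this row.

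In the gp130 family of IL-11 the changes that passed against control were increases. IL6, the cytokine that gives the family its name, rose by 0.58 with shRNA 159 (limma adjusted p = 0.0079) and by 0.54 with shRNA 162 (0.0059). Its clones read 7.33 and 7.20 with shRNA 159, 7.25 and 7.20 with shRNA 162 and 6.68 and 6.69 with control shRNA, so the shRNA clones of both hairpins lay above control by a like step. The kinase JAK2 rose by 0.92 with shRNA 159 (limma adjusted p = 0.0050) and read 0.20 with shRNA 162 (0.328). The receptor IL6R rose by 0.43 with shRNA 162 (limma adjusted p = 0.014) and read 0.21 with shRNA 159 (0.279). Averaged over both hairpins IL6R rose by 0.32 (limma adjusted p = 0.0395), a call kept in 1 of 6 refits without 1 array. Between the hairpins IL6R did not pass (limma adjusted p = 0.13). Of 12 genes 2 passed as higher with each hairpin and 0 as lower. At an unadjusted p under 0.05 there were 3 with shRNA 159 and 4 with shRNA 162. LIFR was among those 4 as a decrease, at -0.31 (limma adjusted p = 0.10).

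Partners of CXCR4, parathyroid hormone-related protein and osteopontin gave few calls. Of 7 genes of the CXCR4 axis, CXCL12 and ACKR3 among them, 0 passed the limma test in any comparison. Several of these rows were dim: ACKR3, CXCR1 and CXCR2 lay below the lower quartile on 6 of 6 arrays and CXCL12 on 2. At an unadjusted p under 0.05 there were 3 with shRNA 159 and 0 with shRNA 162, beside 2995 and 5322 of all 21214 rows. The 3 were decreases: ACKR3 (-0.42), CXCR3 (-0.31) and CXCR2 (-0.31). PTH1R, the receptor of parathyroid hormone-related protein, fell by 0.38 with shRNA 162 (limma adjusted p = 0.031), and ADCY3, an adenylyl cyclase, rose by 0.38 with shRNA 159 (0.042), as the 2 of 10 genes of that list that passed against control. The integrin subunit ITGB3, which forms an osteopontin receptor with ITGAV, fell by 0.49 with shRNA 162 (limma adjusted p = 0.017) and was higher by 0.77 with shRNA 159 than with shRNA 162 (0.0029). Its clones read 8.25 and 8.18 with shRNA 159, 7.35 and 7.55 with shRNA 162 and 7.87 and 8.01 with control shRNA. ITGB5, a subunit of another such receptor, was higher by 0.52 with shRNA 159 than with shRNA 162 (limma adjusted p = 0.0099). Of 14 osteopontin receptors and relatives, 1 passed with shRNA 162 and 0 with shRNA 159 against control by limma, where 2 had an unadjusted p under 0.05 with shRNA 159.

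The Notch list, the largest with 26 genes measured, held 1 gene that passed with each hairpin against control. ADAM17, a protease that sheds Notch ligands, receptors and other surface proteins, rose by 0.53 with shRNA 159 (limma adjusted p = 0.0083). ADAM10, the protease that makes the first ligand-induced cut in Notch, fell by 0.35 with shRNA 162 (0.026). The target gene HEY1 was lower by 0.37 with shRNA 159 than with shRNA 162 (limma adjusted p = 0.046), a call that was lost without any 1 array other than shRNA 159 clone 2 (up to 0.244). No receptor or other ligand of Notch was among the genes that passed against control.

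Among MAP kinase phosphatases and their kinases 4 of 16 genes passed with shRNA 162, and among TGF-beta genes 3 of 15. The MAP kinase phosphatases DUSP10 and DUSP16 rose by 0.62 and 0.71 with shRNA 162 (limma adjusted p = 0.0027 and 0.0037). The kinase MAPK12 rose by 0.49 (0.0069) and MAPK13 fell by 0.36 (0.042), which made 3 genes higher and 1 lower of 16. Of 15 TGF-beta genes, the signal carrier SMAD3 rose by 0.38 (limma adjusted p = 0.029), the repressor of SMAD signalling SKIL rose by 0.53 (0.0074), and the repressor TGIF1 fell by 0.62 (0.021). With shRNA 159 the same 7 genes differed from control by -0.42 (TGIF1) to 0.37 (DUSP16), and 0 of them passed. Over the whole lists 0 of 16 and 0 of 15 passed the limma test with shRNA 159, where 2 and 3 had an unadjusted p under 0.05.

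Other factors by which tumour cells act on bone gave the highest share of calls of the 10 lists with shRNA 162. Of 18 genes, 2 rose and 6 fell with shRNA 162 (44.4%, beside 9.52% of all tested rows). With shRNA 159, 0 rose and 2 fell (11.1%, beside 2.53%). At an unadjusted p under 0.05 there were 11 with shRNA 162 and 9 with shRNA 159, beside 5322 and 2995 of all 21214 rows. The lists were chosen with earlier results of these data known, so this ranking does not test the list. ADAMTS1, a secreted protease, fell by 0.96 with shRNA 159 (limma adjusted p = 0.0013) and by 0.98 with shRNA 162 (0.00070). It read 9.14 and 8.94 in the shRNA 159 clones, 9.00 and 9.03 in the shRNA 162 clones and 9.96 and 10.04 in the control clones, with no overlap of either hairpin with control. The cytokine gene IL1B fell by 0.49 and 0.68 with shRNA 159 and shRNA 162 (limma adjusted p = 0.012 and 0.0016), while IL1A, its neighbour, rose by 1.25 with shRNA 162 (0.00055). LOX, an enzyme that crosslinks collagen, fell by 0.81 with shRNA 162 (limma adjusted p = 0.0053) and was higher by 0.90 with shRNA 159 than with shRNA 162 (0.0034). Of the 57 calls on the 27 pathway genes named by rule, 19 held without any 1 of the 6 arrays: all calls of ADAMTS1, FGF1, IL1A and LOX, and calls of IL1B, FSTL1, DUSP10, DUSP16 and ITGB3. The other 38 were lost without at least 1 array, at limma adjusted p values of up to 0.286.

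**Figure D3:**
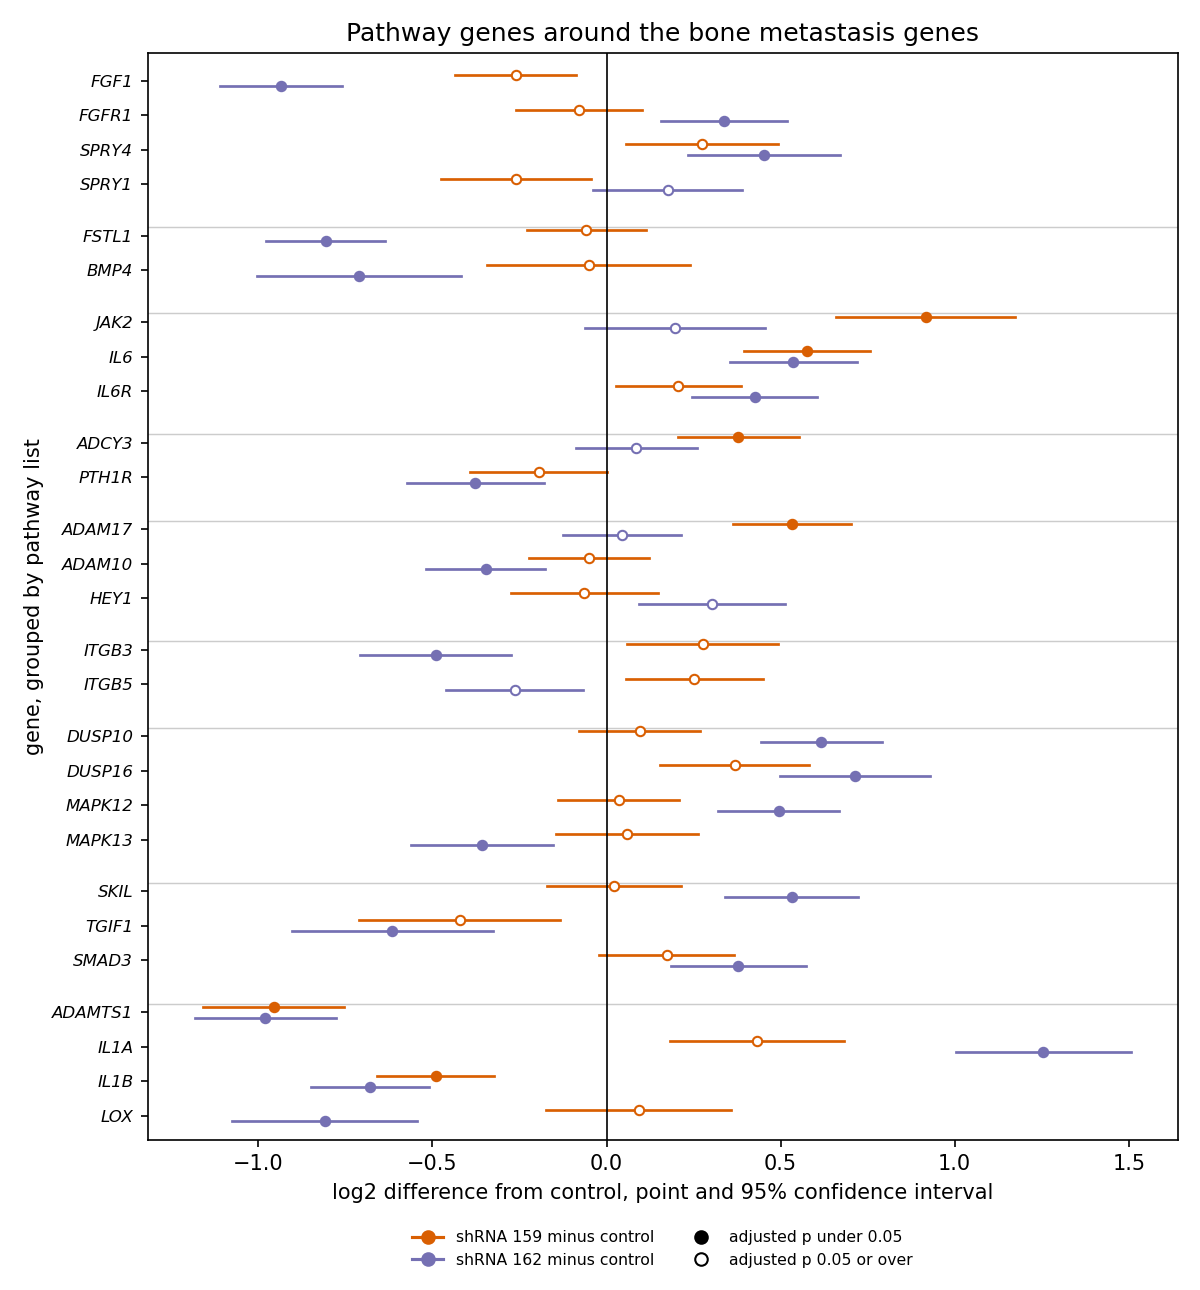
Differences in log2 signal from control (x axis) of the 27 pathway genes named by rule, with shRNA 159 drawn above shRNA 162 for each gene, lines for the 95% confidence interval and filled points where the limma adjusted p was under 0.05. Grey lines part the lists, which run from FGF, activin, gp130, parathyroid hormone-related protein, Notch, osteopontin, MAP kinase and TGF-beta genes to other factors acting on bone. ADAMTS1 lay at -0.96 and -0.98, IL6 at 0.58 and 0.54, and FGF1 at -0.26 and -0.93.

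Rows with the profile most like each member that passed were sought by the root mean square difference between centred log2 values over the 6 arrays. For FGF5 they were PTPRM (0.034), TP73 (0.046) and the pseudogene DENND10P1 (0.047), where FGF5 itself varied by 0.232 around its mean. For FST they were SLC35F6 (0.026), PAPOLG (0.029) and ZFP36L2 (0.030), against 0.190 for FST itself. For IL11 they were PARD6B (0.025), PPP4R4 (0.036) and B3GALT1 (0.043), against 0.159 for IL11 itself. The 6 arrays fall into 3 groups, so many rows can share such a profile.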

How the data were processed

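Each deposited value is the log2 signal of a probe set. The authors used the Affymetrix Exon Array Computational Tool to make them, per the series' design text, and which background correction, normalization or summarization it ran is not given in the sources used here. That the scale is log2 was read from the values, which span 2.29 to 14.65. Of 33297 rows, 19460 carried 1 gene symbol, 1754 several and 12083 none, by the platform's probe table, and the 21214 with a symbol were tested. A model with 3 groups was fitted to all 6 arrays with limma 3.58.1 in R 4.3.3 (lmFit, contrasts.fit and eBayes, 2-sided), without further scaling. P-values were adjusted by Benjamini-Hochberg over all tested rows, and an adjusted p under 0.05 passed. The fit was run on simulated data with independent noise and the same change planted for both hairpins. That cannot check the calls made here or any difference between the hairpins. Arrays give no count depth, and their number limits the precision.

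Up to 4 genes per pathway list were named, those with the smallest p among genes that passed, and the brightest row stood for a gene that had more than 1. For each member that passed, the 3 most alike rows were named. The members and lists were chosen with earlier results of these data known. Alternatives changed the rows tested, the normalization, the variance prior, the blocks, the arrays fitted and the clones included, and those for pathway genes were added after seeing the data. Figures were drawn with matplotlib 3.10.9.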

Additional observations from a re-analysis of the deposited data

Results flagged for a closer look

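IL11 differed between the hairpins, by 0.36 in log2 signal (shRNA 159 minus shRNA 162, limma adjusted p = 0.0343), in a direct test of that difference. Its shRNA 159 clones both lay above both control clones, with a difference of 0.22. Its shRNA 162 clones both lay below both control clones, with a difference of -0.14. With 2 clones a group, no clone could be tested as standing apart.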

How the results depend on the processing

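Over 28 member differences and 335 refits, 286 kept direction and side of the threshold, 35 lost a call, 6 gained one and 8 changed sign, 0 of them in a called difference. The cause was not tested. Counts below are for shRNA 159, shRNA 162 and the average of both against control, and then shRNA 159 against shRNA 162, where 537, 2019, 980 and 1836 rows and 1, 1, 2 and 1 members passed. With all rows, symbol or not, 111, 691, 226 and 593 rows and 0 members in each passed. With the brighter rows, 821 rows passed for shRNA 159, 1487 for the average, and 2 members between the hairpins. That setting left out the dim rows of CXCR4 and SPP1 (percentiles 15.1 and 12.9 of the tested rows), so fewer members were tested. With a variance trend, 1137, 3482, 2265 and 3022 rows passed, with 2 members for shRNA 159 and 3 between the hairpins. Quantile normalization gave 1 member for the average and 2 between the hairpins, and its split of rows was 1078 higher and 1074 lower for shRNA 162 (1247 and 772 as deposited), 565 and 459 for the average (639 and 341), and 1071 and 855 between the hairpins (852 and 984). With the hairpin as a random block 27 rows and 0 members passed for the average, and with the 4 shRNA clones as 1 group 71 and 0. With only the 4 arrays compared, 0 members passed for shRNA 159 and 0 between the hairpins. Leaving out 1 clone gave 142 to 512, 526 to 2416, 187 to 1138 and 597 to 1352 rows, and 0 to 1, 0 to 1, 0 to 2 and 0 to 0 members. The group left with 1 clone is then assumed to vary like the others.

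The replicate block gave 584, 2128, 1011 and 1983 rows and 1, 1, 2 and 1 members, so no member call changed. Of the pathway calls it ended those of HEY1 and ADAM10 between the hairpins and of ADAM17 and SPRY4 on average. Deviations of same-numbered clones correlated at 0.263 (shRNA 159 with control), -0.0517 (shRNA 162 with control) and -0.028 (shRNA 159 with shRNA 162). Array medians were higher for clone 2 than for clone 1 in each group: 7.444 and 7.395 for control, 7.441 and 7.414 for shRNA 162, 7.420 and 7.368 for shRNA 159. The main fit did not pair clones by number, and whether same-numbered clones share an effect was not tested further.

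Signs changed between the hairpins for SPP1 (0.049 after quantile normalization, -0.12 to 0.027 without 1 clone), CXCR4 (-0.37 to 0.066 without 1 clone) and JAG1 (-0.13 to 0.011), for SPP1 with shRNA 162 (-0.13 to 0.012) and for the IL11 average (-0.0066 to 0.083). Signals near the lower quartile limit SPP1 and CXCR4.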
